A study of Mus musculus with 8 samples.

Results

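The genes described here are 10 interferon-stimulated genes whose products act directly against viruses or tune the interferon response: Isg15, Usp18, Rsad2, Bst2, Ifi44, Mx1, Rtp4, Xaf1, Ifi35 and Ifitm3. They were chosen by symbol, and 9 of the 10 were found among the 22173 genes of the deposited expression table. Mx1, a dynamin-like GTPase, is not analysed here. The RefSeq annotation of GRCm38.p6, which was built on C57BL/6J mice, lists it as a transcribed pseudogene. The samples are hearts of C57BL/6J mice whose left anterior descending coronary artery had been tied off, so that every animal, controls included, carried an infarct. 4 libraries are labelled vehicle, and 4 are labelled DAPA, from mice that received this SGLT2 inhibitor (dapagliflozin) daily for 4 weeks at 1 mg/kg. The labels give no age, sex, time of day or dissected region, and do not say that each library is a separate animal, so p-values measure the spread between these libraries.

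Type I interferons are secreted when cells sense foreign or misplaced nucleic acid. They bind the receptor pair Ifnar1 and Ifnar2, whose kinases Jak1 and Tyk2 activate transcription factors, Stat2 among them. A complex that holds Stat2 and Irf9 binds the interferon-stimulated response element (ISRE) in promoters. Its targets include the genes described here. In the infarcted heart such genes are known to be induced in infiltrating macrophages that take up DNA of dying cells.

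All 9 genes were lower in the DAPA hearts. The falls ran from 1.27-fold for Ifi35 to 2.07-fold for Isg15 as ratios of mean FPKM (sequenced fragments relative to transcript length and to the depth of the library). Each of the 9 passed the test at a Benjamini-Hochberg adjusted p below 0.05 (limma-trend on log2(FPKM + 1), adjusted over 11496 genes), and none was higher, at an unadjusted p below 0.05 either. Of all genes tested, 8.75% were called lower and 9.62% higher. In each of the 9 the highest DAPA library lay below the lowest vehicle library, a pattern that 9.99% of all genes tested showed in this direction. The median log2 change of the 9 was -0.55, beside 0.01 over all genes tested and -0.26 over all genes called lower. In a heart piece, fewer cells of a type and less RNA per cell cannot be told apart. The groups also differed in atrial markers, of which 11 of 13 rose and 1 fell with DAPA. Several, though not all, were near absent from every vehicle library and clearly present in every DAPA library. The atrial light chain Myl7 measured 0.379 to 2.93 FPKM with vehicle and 578 to 627 FPKM with DAPA, and sarcolipin (Sln) 0 to 0.886 and 284 to 325 FPKM. The part of this difference in the falls of the 9 genes was not tested. Against a minimum fold of 1.2, which 1.44% of genes passed on the lower side, 7 of the 9 passed. The exceptions were Ifitm3 (adjusted p = 0.061) and Ifi35 (0.71).

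**Figure D1:**
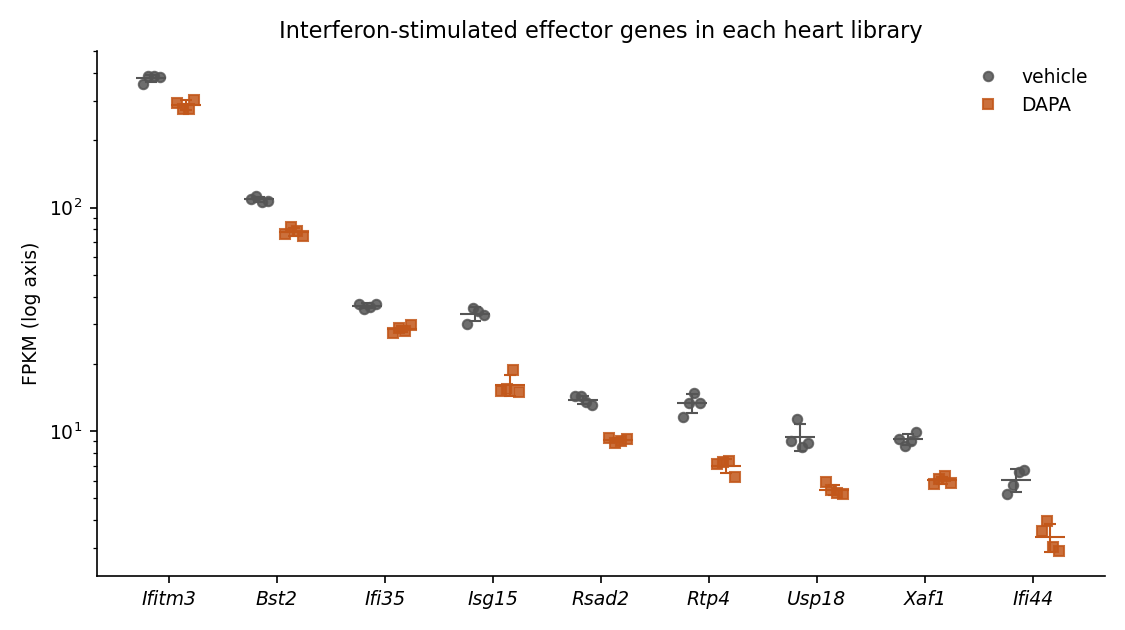
Expression of the 9 genes in each heart library (FPKM, log axis), ordered by the vehicle mean, with vehicle libraries as circles and DAPA libraries as squares. Horizontal bars are means and error bars are SD (n = 4 libraries a group). In each gene the 4 DAPA libraries lie below the 4 vehicle libraries, and the levels span from 379 FPKM for Ifitm3 to 6.07 for Ifi44 in vehicle.

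The promoters in the RefSeq table (build GRCm38.p6) span 250 bases before and 50 after the annotated start. They were searched for the ISRE letters GAAANNGAAA on both strands. The table held 7 of the 9 genes, without Usp18 and Rtp4. The letters were present in 4 of the 7, while 3.44% of the 32851 windows of the same length in the table held them. The matches are shown in capitals below, in the 150 bases before the start of Isg15, Bst2 and Rsad2 and the first 30 bases of the Ifitm3 transcript, each written 5′ to 3′ on the strand of its gene.
Isg15 (chr4:156200819-156200968, minus strand): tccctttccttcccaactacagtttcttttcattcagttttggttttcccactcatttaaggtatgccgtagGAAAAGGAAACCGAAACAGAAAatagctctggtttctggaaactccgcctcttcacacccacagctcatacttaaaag
Bst2 (chr8:71537473-71537622, minus strand): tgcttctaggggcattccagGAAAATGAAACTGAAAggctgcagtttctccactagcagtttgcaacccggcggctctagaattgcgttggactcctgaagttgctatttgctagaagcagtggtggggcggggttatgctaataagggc
Rsad2 (chr12:26456453-26456602, minus strand): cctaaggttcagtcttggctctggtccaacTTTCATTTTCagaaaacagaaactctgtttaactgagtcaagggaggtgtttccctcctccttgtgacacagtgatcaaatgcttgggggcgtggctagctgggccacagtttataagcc
Ifitm3 (chr7:141010715-141010744, minus strand): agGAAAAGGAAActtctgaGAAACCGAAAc

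In Isg15 the capitals are 3 overlapping matches, from 78 to 57 bases before the start. Bst2 held 2 overlapping matches, from 130 to 115 bases before its start, and Rsad2 held 1 on the opposite strand, from 120 to 111 bases before. The 2 matches of Ifitm3 lay behind the annotated start, at positions 3 to 12 and 20 to 29 of the transcript. The letters were not found in the windows of Ifi44, Xaf1 and Ifi35, which says only that this exact string is not there. A second motif, TTCNNNGAA, the palindrome known as the gamma-activated site (GAS), was present in 3 of the 7 windows and in 8.30% of all windows. It overlapped an ISRE match in Bst2 and in Ifitm3, and stood alone in Ifi35. Among the 9194 tested genes with a promoter in the table, 3.71% held the ISRE letters. The share was 9.49% of the 801 genes called lower, 3.58% of the 839 called higher and 3.11% of the 7554 that did not pass. These shares describe letters in a window and are not evidence of binding. The 9 genes were chosen as interferon-stimulated, so their own share does not bear on the effect of DAPA. The genes called lower include those of the 9 with a promoter in the table, and other interferon-stimulated genes.

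The ubiquitin-like system was led by Isg15 (NCBI Gene 100038882). Isg15 is a small protein that is attached to other proteins as ubiquitin is, and is also secreted. It measured 30.2, 35.7, 34.6 and 32.9 FPKM in vehicle libraries 1 to 4 and 15.1, 15.5, 18.8 and 14.9 FPKM in DAPA libraries 1 to 4. DAPA library 3 was the highest of its group and still lay well below the lowest vehicle library. The mean fell from 33.4 ± 2.37 to 16.1 ± 1.81 FPKM (SD, n = 4 each; log2 change -1.01, SE 0.069, adjusted p = 3.7e-07). Of all 11496 genes tested, Isg15 had the 26th largest fall on this scale. Usp18 (24110) is the protease that strips Isg15 from its targets and holds down signalling at Ifnar2. Its values were 9.08, 11.3, 8.47 and 8.84 FPKM with vehicle against 5.90, 5.43, 5.31 and 5.23 with DAPA. Vehicle library 2 stood above the other 3, and the DAPA libraries lay close together. The fall was 1.73-fold, from 9.44 ± 1.30 to 5.47 ± 0.300 FPKM (log2 change -0.68, SE 0.077, adjusted p = 3.5e-05).

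The enzymes that attach Isg15 changed less evenly. Of 5 genes listed for Isg15 conjugation 3 fell and none rose, with a median log2 change of -0.31 beside 0.01 for all genes tested. Uba7, the activating enzyme, fell from 17.3 ± 1.000 to 13.0 ± 0.475 FPKM (adjusted p = 8.3e-05). Herc6, the main Isg15 ligase of mice, fell from 3.79 ± 0.138 to 2.87 ± 0.0593 FPKM (adjusted p = 0.0013). Trim25, a ligase that also acts on the RNA sensor RIG-I, fell 1.26-fold (adjusted p = 3.7e-04). Ube2l6, the conjugating enzyme, measured 30.0 ± 1.66 and 28.2 ± 1.83 FPKM and did not pass (adjusted p = 0.28). Arih1, a ubiquitin ligase of the ariadne family, measured 4.91 ± 0.122 and 5.42 ± 0.246 FPKM (adjusted p = 0.14). Limma voom on recovered reads called Arih1 higher (adjusted p = 0.015). Against a minimum fold of 1.2 none of the 5 passed.

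3 genes encode proteins that block virus entry, replication or release. Rsad2 (58185), or viperin, is a radical SAM enzyme that makes a chain-terminating nucleotide from CTP. It measured 14.4, 14.3, 13.5 and 13.1 FPKM in the vehicle and 9.36, 8.89, 9.03 and 9.22 FPKM in the DAPA libraries. The groups did not overlap, and the coefficient of variation was 4.45% with vehicle and 2.26% with DAPA. Rsad2 fell 1.51-fold (log2 change -0.55, SE 0.045, adjusted p = 2.1e-06). Its neighbour Cmpk2, a mitochondrial nucleotide kinase, fell 1.53-fold, from 9.72 ± 0.874 to 6.33 ± 0.796 FPKM (log2 change -0.55, SE 0.078, adjusted p = 2.6e-04). The gene on the other side of Rsad2, Rnf144a, was higher (log2 change 0.18, adjusted p = 0.048).

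Bst2 (69550), or tetherin, anchors budding virus particles to the cell surface and is also a surface mark of plasmacytoid dendritic cells in mice. Vehicle libraries 1 to 4 held 109, 112, 106 and 107 FPKM, and DAPA libraries 1 to 4 held 76.1, 81.6, 78.4 and 74.2 FPKM. No library strayed from its group, and the gap between the groups exceeded the range within either. Bst2 fell 1.40-fold, from 109 ± 2.76 to 77.6 ± 3.17 FPKM (log2 change -0.48, SE 0.035, adjusted p = 6.2e-07). Of 10 listed markers of those cells 4 were tested and 1 fell. It was Ly6d, from 1.59 ± 0.467 to 0.739 ± 0.262 FPKM (limma adjusted p = 0.0089), on 7 to 40 reads a library. Tcf4, Irf8 and Il3ra did not pass (adjusted p = 0.87, 0.10 and 0.16). Siglech had 2 to 14 reads a library and was not tested, since its means (0.135 FPKM with vehicle, 0.0849 with DAPA) lay below the filter of 1 FPKM. The part of these cells in the fall of Bst2 was not tested.

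Ifitm3 (66141) sits in endosomal membranes and stops viruses from fusing with them. It was the most abundant of the 9, at 358, 388, 386 and 383 FPKM with vehicle and 294, 275, 276 and 303 FPKM with DAPA. Vehicle library 1 was the lowest of its group and exceeded every DAPA library. The mean fell 1.32-fold, from 379 ± 13.8 to 287 ± 13.9 FPKM (log2 change -0.40, SE 0.038, adjusted p = 7.8e-06). Its close relative Ifitm2 did not move with it, at 238 ± 4.03 and 235 ± 6.18 FPKM (log2 change -0.02, adjusted p = 0.74). The ratio of Ifitm3 to Ifitm2 within each library was 1.53, 1.64, 1.63 and 1.57 with vehicle and 1.22, 1.19, 1.21 and 1.27 with DAPA. The ratio was looked at after the values of both genes were seen, so it is given without a test. Ifitm1 was much less abundant, at 13.9, 12.3, 11.3 and 17.4 FPKM with vehicle and 9.14, 9.28, 11.0 and 10.8 FPKM with DAPA. It fell 1.37-fold (log2 change -0.40, SE 0.10, adjusted p = 0.017). The ratio of Ifitm3 to Ifitm1 was 28.3 ± 5.43 with vehicle and 28.7 ± 2.96 with DAPA. The call of Ifitm1 was lost without DAPA library 1 (adjusted p = 0.053), without DAPA library 2 (0.051) and with no filter on low values (0.070). The Ifitm genes are similar in sequence, and the labels do not say how reads shared between them were counted.

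**Figure D2:**
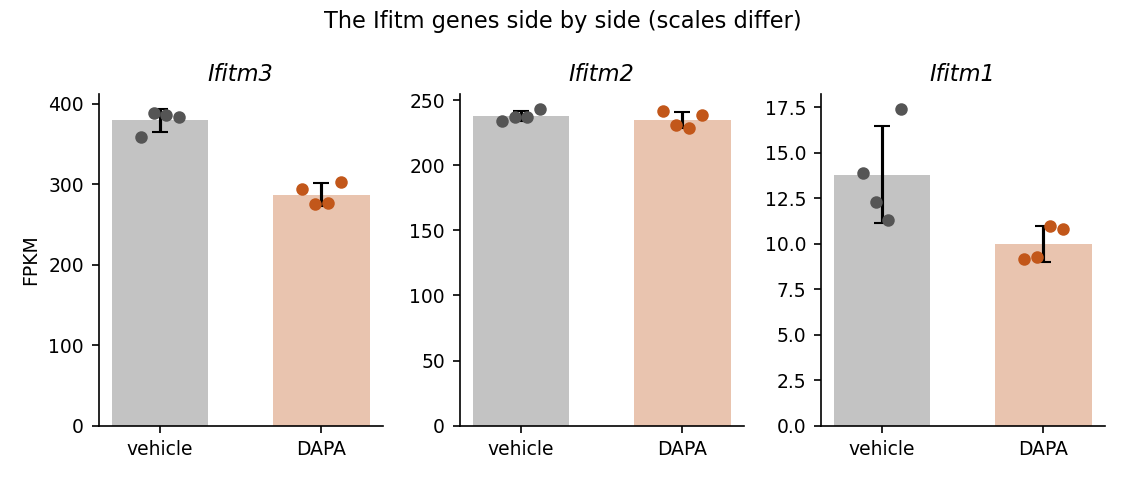
FPKM of Ifitm3, Ifitm2 and Ifitm1 in vehicle and DAPA libraries, each panel on its own linear axis from 0. Bars are means, error bars are SD (n = 4 libraries a group) and points are libraries. Ifitm3 and Ifitm1 were lower with DAPA, while the Ifitm2 groups overlapped.

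The remaining 4 genes have less well-defined antiviral parts. Rtp4 (67775), a Golgi chaperone of G protein-coupled receptors, measured 11.6, 13.3, 14.8 and 13.4 FPKM in the vehicle and 7.11, 7.27, 7.35 and 6.27 FPKM in the DAPA libraries. The DAPA libraries spread less than the vehicle libraries. Rtp4 fell 1.90-fold (log2 change -0.83, SE 0.069, adjusted p = 2.1e-06). Its relative Rtp3 measured 2.79 ± 0.274 and 3.33 ± 0.228 FPKM and did not pass (adjusted p = 0.072). RefSeq places Masp1, a complement protease, over part of the Rtp4 locus, and Masp1 itself did not pass (log2 change 0.12, adjusted p = 0.28).

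Ifi44 (99899), a cytoplasmic protein of poorly defined activity, was the least abundant of the 9. Its coefficient of variation was 11.6% with vehicle, where that of Usp18 was 13.8%, and 14.3% with DAPA. It measured 5.24, 5.75, 6.59 and 6.72 FPKM with vehicle and 3.56, 3.97, 3.05 and 2.91 FPKM with DAPA. These values rest on 217 to 507 reads a library. Ifi44 fell 1.80-fold, from 6.07 ± 0.705 to 3.37 ± 0.482 FPKM (log2 change -0.70, SE 0.088, adjusted p = 1.1e-04). Its neighbour and relative Ifi44l had a value above 0 in DAPA library 3 alone (0.182 FPKM). The neighbour on the other side, Adgrl4, an adhesion receptor of endothelial cells, was higher (35.5 to 43.8 FPKM, log2 change 0.30, adjusted p = 5.7e-05).

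Xaf1 (327959) binds the apoptosis inhibitor Xiap and opposes it. The vehicle libraries read 9.26, 8.54, 9.07 and 9.88 FPKM and the DAPA libraries 5.79, 6.10, 6.30 and 5.89 FPKM. The groups lay apart by more than either spread, and Xaf1 fell 1.53-fold (log2 change -0.54, SE 0.053, adjusted p = 1.2e-05). Xiap did not pass, at 3.01 ± 0.234 and 2.99 ± 0.0995 FPKM (adjusted p = 0.97). Ifi35 (70110), a cytosolic protein that pairs with Nmi, had the smallest fall of the 9. It measured 37.1, 35.2, 36.0 and 37.2 FPKM with vehicle against 27.6, 29.0, 28.0 and 29.7 FPKM with DAPA. All 8 libraries kept within a few FPKM of their group mean. Ifi35 fell 1.27-fold, from 36.4 ± 0.932 to 28.6 ± 0.955 FPKM (log2 change -0.34, SE 0.036, adjusted p = 2.5e-05). Nmi measured 11.3 ± 0.553 and 10.7 ± 0.859 FPKM and did not pass (adjusted p = 0.40). The genes on either side of Ifi35, Rpl27 and Vat1, both had a log2 change of -0.13 (adjusted p = 0.028 each).

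**Figure D3:**
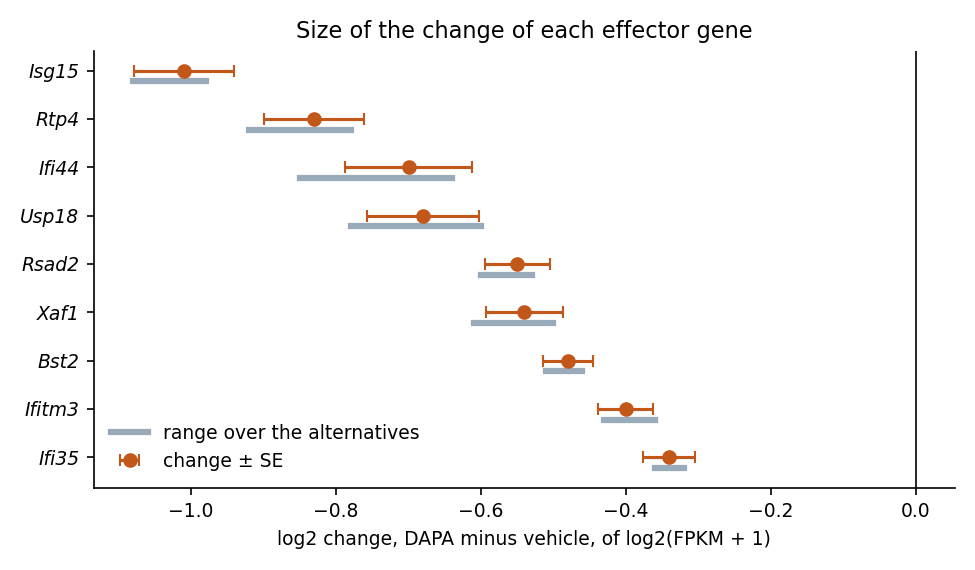
Log2 change (DAPA minus vehicle, of log2(FPKM + 1)) of the 9 genes, with points as estimates and bars as SE from the limma fit (n = 4 libraries a group). The thick bars give the range over 16 alternative analyses. The changes run from -1.01 for Isg15 to -0.34 for Ifi35, and no range reaches 0.

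The genes differed more in level than in change. In vehicle hearts the highest mean, of Ifitm3, was 62.4 times the lowest, of Ifi44. The order in vehicle was Ifitm3, Bst2, Ifi35, Isg15, Rsad2, Rtp4, Usp18, Xaf1 and Ifi44. The neighbours Ifi35 and Isg15, Rsad2 and Rtp4, and Usp18 and Xaf1 overlapped between libraries there, and the others did not. With DAPA the order of means was the same except for Xaf1 and Usp18, which overlapped in both groups. There the libraries of Rtp4 and Xaf1 overlapped as well, while those of Ifi35 and Isg15, and of Rsad2 and Rtp4, did not. The 3 most abundant genes had the 3 smallest falls, at -0.48 for Bst2, -0.40 for Ifitm3 and -0.34 for Ifi35.

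The sizes of the falls were compared pair by pair, as the log2 ratio of 2 genes within each library, over 36 pairs. The widest gap was between Isg15 and Ifi35, a difference of -0.67 on the log2 scale. It was among 15 pairs that reached the smallest p the design allows (exact two-sided permutation p = 0.0286 over 70 assignments of libraries). With Benjamini-Hochberg adjustment over the 36 pairs their adjusted p was 0.0686, so no pair passed (0 of 36). With so few assignments, a pair can pass only if many pairs reach the smallest p together. Ifi35 was in 6 of these 15 pairs, Isg15 in 5 and Ifi44 in none. Rsad2 and Xaf1 differed by -0.01 (exact permutation p = 0.886), and Usp18 and Ifi44 by 0.01 (0.914). These values do not show that the members of such pairs respond alike.

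The highest and lowest libraries varied from gene to gene. Within the vehicle group, library 2 was the highest for 4 of the 9 genes and library 1 the lowest for 4. Within the DAPA group, library 4 was the lowest for 5 genes and library 3 the highest for 3. The mean deviation of a library from its group over the 9 genes ran from -0.06 (vehicle library 1) to 0.03 (vehicle library 2) on the log2 scale. Leaving out any of the 8 libraries kept all 9 genes past the threshold.

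In the rest of the pathway, the ligands were at the edge of detection. Of 21 interferon genes listed, 17 were at 0 in all 8 libraries, where a count of 0 allows up to 3 reads. Ifnb1 was above 0 in vehicle library 1 alone (0.0499 FPKM), and Ifng had at most 3 recovered reads in a library. No ligand could be tested. Of 8 tested receptor and kinase genes 1 fell and 1 rose, with a median log2 change of 0.02. Ifngr1, the ligand-binding chain of the interferon gamma receptor, fell from 70.6 ± 3.15 to 59.0 ± 1.41 FPKM (adjusted p = 2.7e-04). Il10rb, shared by the interleukin 10 and interferon lambda receptors, rose from 59.3 ± 1.17 to 69.1 ± 1.15 FPKM (adjusted p = 2.0e-04). The type I receptor chains did not pass, with Ifnar1 at 8.60 ± 0.551 and 8.60 ± 0.414 FPKM and Ifnar2 at 8.70 ± 0.137 and 8.86 ± 0.547 FPKM (adjusted p = 1.00 and 0.82).

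Of 8 transcription factors of the response 5 fell and none rose, with a median of -0.28. Stat2 and Irf9, which act in the ISRE-binding complex, both fell. Stat2 fell from 16.2 ± 1.38 to 9.78 ± 0.522 FPKM (log2 change -0.67, adjusted p = 4.6e-06) and Irf9 1.61-fold. Irf7, which amplifies interferon production, fell 1.62-fold. Irf1, which the rule for named genes did not pick and which was chosen for its values, fell too (adjusted p = 0.010). Irf3, which is present before any signal, measured 31.7 ± 1.39 and 31.0 ± 1.71 FPKM (adjusted p = 0.67), and Irf5 had an adjusted p of 0.50. Irf8 measured 5.62 ± 0.303 and 4.79 ± 0.683 FPKM (adjusted p = 0.10), and passed without DAPA library 3 (0.049). Usp18, which holds down signalling at Ifnar2 and fell, was counted with the 9 genes and not among the negative regulators listed. Of the 8 negative regulators listed none fell and 1 rose, with a median of 0.06. It was Socs3, an inhibitor of Jak kinases, at 4.46 ± 0.132 and 5.55 ± 0.469 FPKM (adjusted p = 0.0090). Socs1 measured 3.34 ± 0.786 and 3.74 ± 0.832 FPKM (adjusted p = 0.59).

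Of 39 other interferon-stimulated genes tested, 35 fell and none rose, with a median log2 change of -0.49. Earlier results of these data were known when this list was drawn up. The antiviral synthetase-like gene Oasl2 fell 2.15-fold (log2 change -1.01), as far as Isg15 on that scale, and Ifit3 fell 1.72-fold. Those that did not pass were Samd9l (log2 change -0.10), Pml (-0.17), Ifi27 (-0.02) and the chemokine Cxcl10 (0.27, adjusted p = 0.21). Cxcl10 passed as higher without vehicle library 4 (log2 change 0.41, adjusted p = 0.039), and Pml passed as lower with limma voom on recovered reads (adjusted p = 0.026). The ISRE letters were present in 56.7% of the 30 genes of this list with a promoter in the table. This list too was chosen as interferon-stimulated, so its share does not bear on the effect of DAPA.

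**Figure D4:**
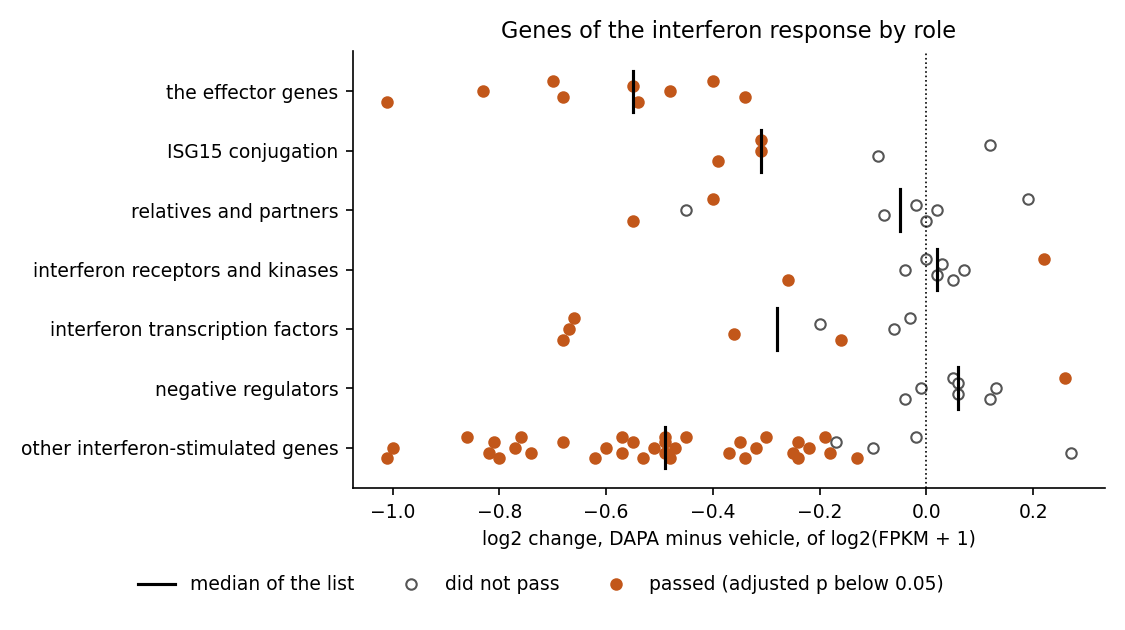
Log2 change (DAPA minus vehicle, of log2(FPKM + 1)) of each tested gene of the interferon response, by role. Filled points passed at an adjusted p below 0.05 (limma-trend, n = 4 libraries a group), open points did not, and vertical bars are list medians. The medians of the effector genes (-0.55) and the other interferon-stimulated genes (-0.49) lie left of those of the receptors and kinases (0.02) and the negative regulators (0.06). Usp18 is plotted with the effector genes and not with the negative regulators.

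Among 11487 other tested genes, the 8 whose centred profile over the 8 libraries was closest to the mean profile of the 9 genes were Timp4, Sema6b, Mt1, Irgm2, H2-Eb1, Nfkbia, Tob2 and Tspan4. Likeness was the root mean square difference on the log2(FPKM + 1) scale, which ran from 0.041 for Timp4 to 0.056 for Tspan4, with a median of 0.323 over all genes compared. Since all profiles share the 8 libraries and the contrast, any gene with a fall near the mean fall and tight replicates ranks high. Timp4, an inhibitor of metalloproteinases, fell from 31.5 ± 0.975 to 20.2 ± 0.493 FPKM, and the metallothionein Mt1 from 279 ± 14.3 to 174 ± 1.98 FPKM. None of the 8 is in the lists of the interferon response used here, but Irgm2 is an interferon-inducible GTPase of the same family as Irgm1 and Igtp, which are.

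Position and annotation were shared in part. Neighbours along the chromosomes were taken among genes with deposited values, and genes that overlap the 9, such as Masp1, were left out. Of the 18 neighbours 6 were lower, 2 were higher, 3 did not pass and 7 were too low to test. Over all genes tested, 8.75% were lower and 9.62% higher. Of the 6, Cmpk2 and Ifitm1 are also listed as relatives or partners of the 9 genes. Agrn, Tuba8, Rpl27 and Vat1 had log2 changes from -0.21 to -0.12. In the gene ontology terms of the deposited table, 5 of the 9 genes carry "defense response to virus", a term of 0.830% of all genes in the table. The term "negative regulation of viral genome replication" (0.194% of the table) is given to Bst2, Ifitm3, Isg15 and Rsad2. The authors' deposited table gives all 9 genes a ratio of DAPA over vehicle below 1, from 0.478 for Isg15 to 0.779 for Ifi35, each with a q-value below 0.05, as it does for 8.65% of the genes it compares. The authors' deposited table marks 1 of the 9, Isg15, as down-regulated.

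Markers of ventricular muscle were abundant, as the label heart implies, with a summed level over 14 genes of 42840 to 43304 FPKM with vehicle and 38955 to 41614 FPKM with DAPA. The groups did not overlap, and 3 of the 14 fell (Myl2, Actc1 and Fabp3) while none rose. Markers of several other cell types differed between the same libraries. Of 13 atrial markers 11 rose and 1 fell. Their summed level, 8290 to 9233 FPKM with vehicle and 13206 to 13921 FPKM with DAPA, was mostly Nppa, which rose 1.42-fold. Beside Myl7 and Sln, the mean of Myl4 was 0.413 FPKM with vehicle and 44.5 FPKM with DAPA, that of Mybphl 0.0891 and 58.2 FPKM, and that of Bmp10, at 0 in 3 vehicle libraries, 0.00724 and 13.4 FPKM. Of 12 tested adipocyte markers 11 fell, and Cidea did not pass. Their summed level, 1751 to 1989 against 1247 to 1317 FPKM, was mostly Fabp4, which fell 1.23-fold. Some of the less abundant markers fell further, such as Cidec (6.11-fold), Cfd (5.66-fold) and Adipoq (3.66-fold). Of 12 endothelial markers 9 rose and 2 fell (683 to 711 against 788 to 817 FPKM). Of the B and plasma cell markers 5 were tested and 2 fell (22.5 to 29.5 against 13.7 to 17.4 FPKM over 9 genes). Neutrophil markers summed to 8.20 to 10.3 FPKM with vehicle and 3.96 to 6.33 FPKM with DAPA, with none of 3 tested markers called and Camp at 0 throughout. Of 18 markers of macrophages and monocytes 6 rose and 4 fell, and their sums overlapped (1017 to 1217 and 1083 to 1176 FPKM). Plasmacytoid dendritic cell markers summed to 20.2 to 23.2 and 18.2 to 18.4 FPKM, with 1 of 4 tested lower. Of the T and NK cell markers 1 was tested, Nkg7, and did not pass (limma adjusted p = 0.55). The low sums of these markers overlapped, at 3.56 to 5.50 and 4.38 to 5.64 FPKM. Fibroblast markers fell in 4 and rose in 1 of 10 (2015 to 2086 against 1845 to 2003 FPKM). The part of these differences in the falls of the 9 genes was not tested.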

How the data were processed

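Per the labels' protocols, heart RNA was extracted with TRIzol, stranded mRNA libraries were sequenced as paired reads and reads were trimmed with Trimmomatic. HISAT2, SAMtools, StringTie, Cufflinks, HTSeq and DESeq are named without roles or versions in the submitters' processing notes, as is GRCh38, a human build, although the gene identifiers are of mouse. No coordinates were therefore taken from the files, and those of promoters are from RefSeq (GRCm38.p6). The deposited values are FPKM, computed by the authors per library. The deposited fold (a ratio) and q-value are the authors' own comparison. The low FPKM values were whole multiples of a step, so reads were recovered for 17356 of 17356 genes (tolerance 0.0001 reads), with 24939013 to 26768206 reads a library. The 9 genes rest on 217 to 6738 reads a library. No columns of a group were identical, and pairs of libraries differed by more than sampling noise (chi-square per degree of freedom 3.59 to 7.94).

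Vehicle and DAPA, 4 libraries each, were compared in limma 3.58.1 (limma-trend, in R 4.3.3), with no covariate. Values were log2(FPKM + 1) of genes with a mean FPKM of 1 or more in at least 1 group, and genes were called at an adjusted p under 0.05. A fold on this scale understates changes of low genes. The fit was tested on simulated data. Pairs of genes were compared with exact permutation tests (scipy 1.17.1). Alternatives were another pseudocount (0.1), no filter, 2 scalings, no trend, limma voom on recovered reads, a minimum fold of 1.2, a replicate block and leaving out each library. The members and lists were chosen with earlier results of these data known. Named genes were all members, up to 4 genes of smallest p per list, all conjugation genes and relatives with a value, and the 8 closest profiles. A gene that the rule picks is not reported here. List genes that did not pass were named after their values were seen.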

Additional observations from a re-analysis of the deposited data

Results flagged for a closer look

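In 12 of 122 groups of 4 libraries, over 61 named genes, the highest or lowest library lay far from the other 3 (its gap to the nearest, over the range of the group, exceeded the 95% critical value of Dixon's test). Chance alone flags about 1 group in 20. Among the effector genes there were 2 such cases. DAPA library 3 held 18.8 FPKM of Isg15, above 14.9 to 15.5 in the others, and without it the log2 change was -1.08 (limma adjusted p = 8.3e-08). Vehicle library 1 held 358 FPKM of Ifitm3, below 383 to 388, and without it the log2 change was -0.43 (adjusted p = 8.5e-06).

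Of the conjugation genes, DAPA library 2 was low for Arih1 (5.05 FPKM, others 5.54 to 5.55) and high for Ube2l6 (31.0, others 27.3 to 27.4). Of the relatives, vehicle library 1 was high for Ifitm5 (1.93, others 0.614 to 0.832). In the receptor and kinase list, DAPA library 1 was high for Jak1 (28.6, others 26.2 to 26.5), DAPA library 2 low for Ifnar2 (8.04, others 9.05 to 9.20) and vehicle library 4 high for Jak2 (4.59, others 4.22 to 4.27). Vehicle library 3 was high for Irf8 (6.07, others 5.42 to 5.49) and low for Gbp3 (17.1, others 18.4 to 18.7). DAPA library 1 was low for Ptpn11 (50.4, others 53.0 to 53.4), and DAPA library 4 was low for H2-Eb1 (49.4, others 55.5 to 56.5).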

How the results depend on the processing

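Under 16 alternatives the 9 effector genes stayed lower, and 7 of the 9 stayed past the threshold in all of them. The exceptions were Ifitm3 (limma adjusted p = 0.061) and Ifi35 (0.71) against a minimum fold of 1.2. That test also left 302 genes called instead of 2112, and 22 instead of 48 in the lists of the interferon response, since it asks for a larger change. Isg15 ranged from -1.08 to -0.98 on the log2 scale (adjusted p from 7.8e-13 to 7.7e-05), Usp18 from -0.78 to -0.60 (1.5e-07 to 0.0034) and Ifi44 from -0.85 to -0.64 (4.2e-08 to 0.0083). The comparison of pairs of genes passed 0 of 36 under the alternatives too, but so few assignments of libraries can hardly pass any, so this says nothing about stability. Leaving out a library gave 1693 to 1892 calls over all genes. Median centring and quantile normalization kept the median of the 9 at -0.55. Over the 61 genes refitted singly, 14 values lost their call and 4 gained it, and none reversed. Among counts by direction, for each list and over all genes, 10 moved by over 1.5 times, all to fewer calls. Most did so against the minimum fold, where the other interferon-stimulated genes called lower went from 35 to 19, and the rest follow from Ifitm1.

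Libraries that share a replicate number did not deviate together (correlation from -0.055 to 0.014 across genes), so the numbers were not taken as pairs. With the replicate block, 1764 genes were called, the 9 effector genes among them. Depth limits the interferon ligands, Ifitm6 (1 to 29 reads a library) and Cxcl10 (30 to 75 reads).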
